A study of Mus musculus with 12 samples.

Results

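The genes described here are 6 genes whose transcripts mark the upper layers of the cortex, layers 2 to 4: Cux1, Cux2, Rorb, Rasgrf2, Pou3f2 and Pou3f3. They were chosen by symbol from the 33024 gene symbols of the count table, and all 6 were among the 16059 genes with enough reads to be tested. Bulk RNA-seq was performed on brain cortex of 12 wildtype C57BL/6 mice, 7 water-drinking controls (Control) and 5 ethanol-administered mice (EtOH). From 30 days of age, the EtOH mice could choose between water and 20% (v/v) ethanol in 12 h sessions that began 3 h into the dark phase, and the controls were offered water alone (the 2BC-DID model of binge-like drinking). Access was repeated for 35 sessions, and both groups were then kept for 14 days without alcohol and taken through behavioural tests before the tissue was collected. As the mice chose how much to drink, the dose of each EtOH mouse was its own, and the cortex was collected as a block of tissue without separation of its layers.

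The cortex is built in layers, and the upper ones hold mostly excitatory neurons that connect cortical areas with each other and, in layer 4, receive input from the thalamus. CUX1 and CUX2 are Cut-type homeodomain transcription factors that shape the dendrites and synapses of these neurons, and the nuclear receptor RORB helps to specify layer 4 neurons. POU3F2 (BRN2) and POU3F3 (BRN1) are POU-domain transcription factors with overlapping roles in the production and migration of upper layer neurons, while RASGRF2 is a calcium-responsive exchange factor that activates Ras and has been linked to the reinforcing effect of alcohol in mice. None of these genes is used by upper layer neurons alone: POU3F2 and POU3F3 also occur in glia, and CUX1 in many cell types. In bulk tissue, fewer cells of a type and less RNA per cell cannot be told apart.

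The stretches of 250 bases just before the outermost annotated 5′ ends of Cux2, Rasgrf2 and Pou3f2 are shown because these were the members whose counts differed between the groups at an adjusted p under 0.05. They are on the minus strand of GRCm39, at chr5:122188522-122188771, chr13:92269376-92269625 and chr4:22488367-22488616, and are printed 5′ to 3′, with capitals marking the letters CCAAT.
Cux2: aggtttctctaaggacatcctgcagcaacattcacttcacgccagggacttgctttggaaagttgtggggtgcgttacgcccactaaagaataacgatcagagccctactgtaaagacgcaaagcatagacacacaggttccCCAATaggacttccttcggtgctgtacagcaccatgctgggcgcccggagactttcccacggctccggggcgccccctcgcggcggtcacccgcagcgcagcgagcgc
Rasgrf2: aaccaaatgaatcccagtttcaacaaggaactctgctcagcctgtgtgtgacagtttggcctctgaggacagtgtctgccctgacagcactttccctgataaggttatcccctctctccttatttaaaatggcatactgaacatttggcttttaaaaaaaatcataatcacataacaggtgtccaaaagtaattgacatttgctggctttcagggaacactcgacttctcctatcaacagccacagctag
Pou3f2: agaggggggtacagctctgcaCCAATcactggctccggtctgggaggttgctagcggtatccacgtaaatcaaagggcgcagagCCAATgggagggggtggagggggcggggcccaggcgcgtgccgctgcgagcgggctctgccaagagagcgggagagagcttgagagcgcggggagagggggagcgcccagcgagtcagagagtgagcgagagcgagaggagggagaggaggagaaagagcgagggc
The Cux2 stretch had a GC content of 58.4% with 18 CpG dinucleotides, and that of Pou3f2 66.8% with 18. That of Rasgrf2 had 42.8% with 1 CpG, against medians of 51.2% and 6 CpG over the 21770 stretches taken in the same way from protein-coding genes. CCAAT, read on both strands (CCAAT or ATTGG), occurred 1 time before Cux2, 2 times before Pou3f2 and 0 times before Rasgrf2, and 36.1% of all stretches held it. Neither the POU octamer ATGCAAAT (on both strands in 1.52% of all stretches) nor the nuclear receptor half-site AGGTCA (13.9%) was found before any of the 6 genes. Cux2 and Rasgrf2, which were both higher in EtOH mice, thus differed in base composition before these ends.

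Of the 6 genes, 0 were called different between the groups by edgeR's quasi-likelihood test, which required both a log2 fold change over 0.5 in either direction and a Benjamini-Hochberg adjusted p under 0.05, against 8.29% of all genes tested. Across all genes, 4.2% were called higher and 4.09% lower in EtOH mice. By adjusted p alone, 3 of the 6 members differed, Cux2 and Rasgrf2 being higher and Pou3f2 lower in EtOH mice, where 23.7% of all genes did so. An unadjusted p under 0.05 was also found for 3 of the 6, beside 36.5% of all genes. DESeq2 and limma voom likewise called 0 of the 6, beside 8.66% and 8.21% of all genes. The median log2 fold change of the members was -0.06, beside 7.21e-05 over all genes tested, and the median size of the change was 0.19 beside 0.15. The 95% interval of the change lay within 0.5 on the log2 scale, in either direction, for 5 of the 6, the exception being Pou3f2. In 0 of the 6 were the groups fully apart, where 4.84% of all genes had every EtOH mouse above every control and 4.96% had every EtOH mouse below every control.

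**Figure D1:**
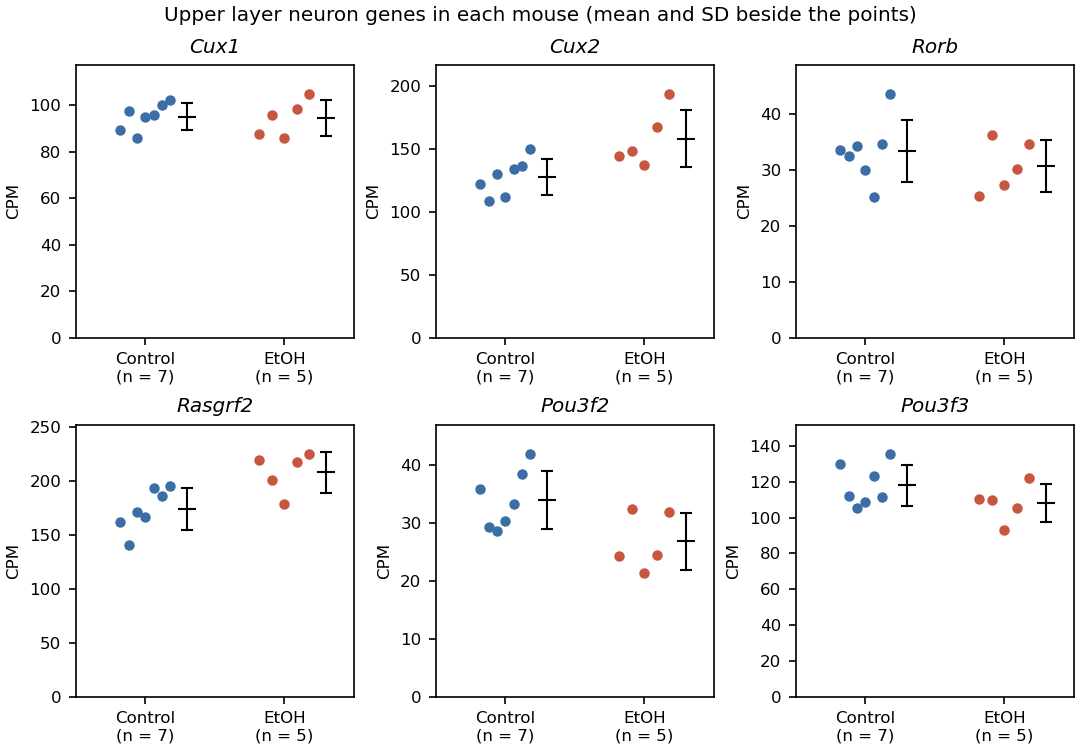
Normalised counts (CPM, linear axis from 0) of each upper layer gene, with 1 point per mouse, in the 7 Control (blue) and 5 EtOH (red) mice, and the mean with its SD in black. Rasgrf2 lay above every control in 4 EtOH mice and Pou3f2 below every control in 3, and Cux2 above every control in 2; the groups overlapped for all 6 genes.

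The Cut homeobox genes behaved differently from each other. Cux1 (ENSMUSG00000029705.19, minus strand of chr5:136276755-136596408 in GRCm39) had 95.1 ± 5.80 CPM (SD, n = 7) in controls, where CPM is the count of a gene relative to the effective library size of the mouse, with a lowest value of 85.7, a median of 96.0 and a highest value of 102. In EtOH mice it measured 87.7, 95.6, 85.8, 98.5 and 105 CPM in mice 1 to 5, with a mean of 94.4 ± 7.79 (SD, n = 5). The groups covered nearly the same range, with 1 EtOH mouse above all controls. The log2 fold change was -0.01 (SE 0.06, 95% interval -0.14 to 0.12, edgeR adjusted p = 0.924). Of its exon bases, 171 are shared with Gm30408 and 394 with Gm16599, noncoding genes on the opposite strand that are not rows of the count table.

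Cux2 (ENSMUSG00000042589.20, minus strand of chr5:121994429-122188521) had 127 ± 14.6 CPM in controls, with a lowest value of 108, a median of 130 and a highest value of 149. EtOH mice 1 to 5 had 144, 148, 137, 167 and 193 CPM, a mean of 158 ± 22.6. All 5 lay above the control median and 2 above every control, mouse 5 being the highest. Cux2 was thus 1.24-fold higher in EtOH mice (log2 0.31, SE 0.09, 95% interval 0.12 to 0.50, edgeR adjusted p = 0.0181), below the minimum fold for a call. The adjusted p stayed under 0.05 in 11 of 12 fits that left out 1 mouse each, the exception being EtOH mouse 5 (log2 0.23, adjusted p = 0.0654).

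Rorb (ENSMUSG00000036192.17, minus strand of chr19:18907969-19088585) had 33.4 ± 5.55 CPM in controls, from 25.2 over a median of 33.6 to 43.5. EtOH mice had 25.4, 36.4, 27.3, 30.1 and 34.6 CPM, a mean of 30.8 ± 4.67, all of them within the range of the controls. The log2 fold change was -0.12 (SE 0.11, 95% interval -0.36 to 0.12, edgeR adjusted p = 0.472). Rorb had the widest relative spread in controls of the 6 genes, with a coefficient of variation of 16.6%.

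Rasgrf2 (ENSMUSG00000021708.20, minus strand of chr13:92027891-92269375) had 174 ± 19.4 CPM in controls, from 141 over a median of 171 to 196. EtOH mice 1 to 5 had 219, 201, 178, 217 and 225 CPM, a mean of 208 ± 19.1. Of the EtOH mice, 4 lay above every control, and mouse 3 lay within the control range. The fold change was 1.20 (log2 0.26, SE 0.08, 95% interval 0.10 to 0.43, edgeR adjusted p = 0.0225). The adjusted p was above 0.05 without EtOH mouse 1 (0.0541), mouse 4 (0.0533) or mouse 5 (0.0647), at log2 fold changes of 0.25, 0.24 and 0.23. Of its exon bases, 306 (3.01%) are shared with Gm60550, a noncoding gene on the opposite strand, which is not a row of the count table.

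The POU-domain genes both had lower mean levels in EtOH mice, but 1 of them differed by adjusted p. Pou3f2 (ENSMUSG00000095139.3, minus strand of chr4:22482780-22488366), a gene of 1 exon, had 34.0 ± 5.05 CPM in controls, from 28.5 over a median of 33.3 to 41.9. EtOH mice 1 to 5 had 24.4, 32.3, 21.4, 24.4 and 31.8 CPM, a mean of 26.9 ± 4.92. All 5 lay below the control median and 3 below every control, while mice 2 and 5 lay within the control range. The log2 fold change was -0.34 (SE 0.11, 95% interval -0.58 to -0.10, edgeR adjusted p = 0.0395), a level 0.790 times that of controls. This adjusted p was the least stable of the 3: it stayed under 0.05 in 6 of 12 fits with 1 mouse left out, and exceeded it without Control mouse 1 (0.0695), 6 (0.0683) or 7 (0.0732), or EtOH mouse 1 (0.0984), 3 (0.109) or 4 (0.0932). Pou3f2 shares 449 exon bases with Gm57099 and 184 with Gm30731, both on the opposite strand, and whether reads were counted by strand is not given in the sources used here. Gm30731 had a mean of 58.4 counts in controls and 41.0 in EtOH mice, far below the 717 to 1364 counts of Pou3f2 in each mouse.

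Pou3f3 (ENSMUSG00000045515.5, plus strand of chr1:42734085-42742336) had 118 ± 11.5 CPM in controls, from 106 over a median of 112 to 136. EtOH mice had 110, 110, 93.2, 106 and 122 CPM, a mean of 108 ± 10.5, with 1 mouse, EtOH mouse 3, below every control. The log2 fold change was -0.13 (SE 0.07, 95% interval -0.28 to 0.03, edgeR adjusted p = 0.229). It shares 304 exon bases with the opposite-strand noncoding gene Pantr1, which had a mean of 978 counts in controls and 837 in EtOH mice, so reads of the pair could be confused if strand was not used. It also shares 264 exon bases (3.41%) with Gm20646 on the same strand, which had means of 75.3 and 75.6 counts, and these reads cannot be told apart by strand.

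**Figure D2:**
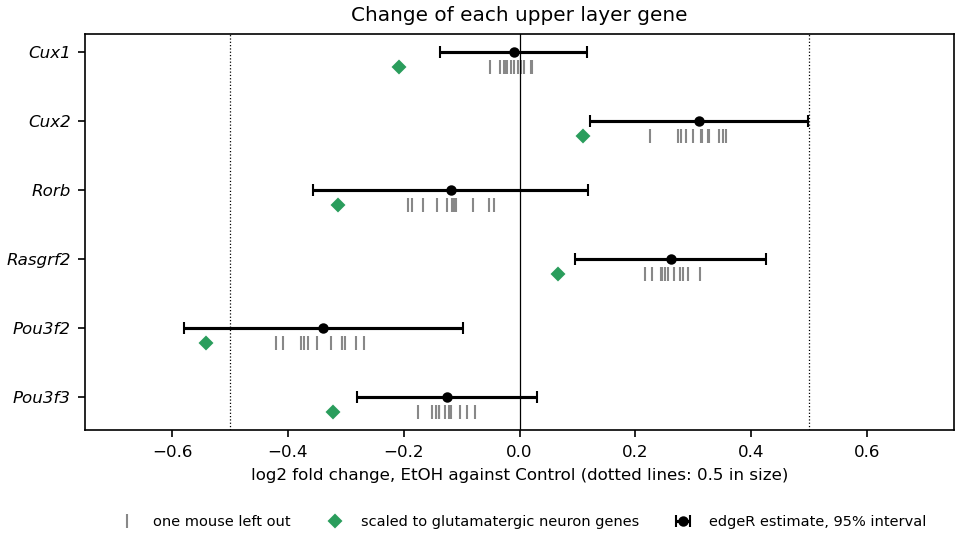
Log2 fold change of each upper layer gene, EtOH against Control, with the edgeR estimate and its 95% interval (black), the 12 fits with 1 mouse left out (grey ticks) and the fit scaled to glutamatergic neuron genes (green diamonds); dotted lines mark 0.5 in size. The intervals of Cux2, Rasgrf2 and Pou3f2 do not reach 0, and all 6 diamonds lie to the left of the black points.

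Per kilobase of annotated exon, which allows levels of different genes to be set side by side, the order of mean levels in controls was Rasgrf2 (17.1 ± 1.91 CPM per kilobase), Pou3f3 (15.3 ± 1.49), Cux2 (11.2 ± 1.28), Pou3f2 (6.08 ± 0.90), Cux1 (3.92 ± 0.24) and Rorb (3.01 ± 0.50). The ranges over the 7 controls overlapped for Rasgrf2 and Pou3f3 and for Cux1 and Rorb, and not for the other neighbours. The order of the means was the same in EtOH mice, with 20.5 for Rasgrf2, 13.9 for Cux2, 4.81 for Pou3f2, 3.89 for Cux1 and 2.77 for Rorb. Over the 5 EtOH mice the ranges overlapped for Pou3f3 (12.1 to 15.8) and Cux2 (12.1 to 17.0) and for Pou3f2 (3.83 to 5.79) and Cux1 (3.54 to 4.32), and not for the other neighbours. The place of Cux1 depends on the exons taken: against its canonical transcript (11253 bases in place of 24248) its control level was 8.45 CPM per kilobase, above the 6.08 of Pou3f2.

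Ratios between members within a mouse do not depend on library size. The ratio of Cux2 to Cux1 had a median of 1.37 in controls (1.11 to 1.51) and 1.64 in EtOH mice (1.55 to 1.84), and all 5 EtOH mice lay above all 7 controls. On the log2 scale the means were 0.42 ± 0.17 and 0.73 ± 0.10, a difference of 0.32 (exact two-sided permutation test over 792 splits, p = 0.00253, 0.00758 after adjustment over 3 ratios). The smallest p this test can give is 0.00126. As the 3 ratios were chosen with earlier results of these data known, their p-values are not independent tests. With Cux1 at a log2 change of -0.01, the difference was close to the change of Cux2 itself (0.31). The ratio of Rorb, a layer 4 gene, to Cux2, expressed from layer 2 to layer 4, was lower in EtOH mice, with log2 means of -1.94 ± 0.22 and -2.36 ± 0.20 (difference -0.42, exact permutation p = 0.0126, adjusted 0.0189). Of the EtOH mice, 3 were below every control. The ratio of Pou3f3 to Pou3f2 had log2 means of 1.81 ± 0.14 in controls and 2.02 ± 0.17 in EtOH mice (difference 0.22, exact permutation p = 0.0391, adjusted 0.0391), with 4 EtOH mice above every control. Its p exceeded 0.05 in 5 of 12 repeats with 1 mouse left out, without Control mouse 6 or 7 or EtOH mouse 1, 3 or 4 (log2 differences of 0.17 to 0.20).

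**Figure D3:**
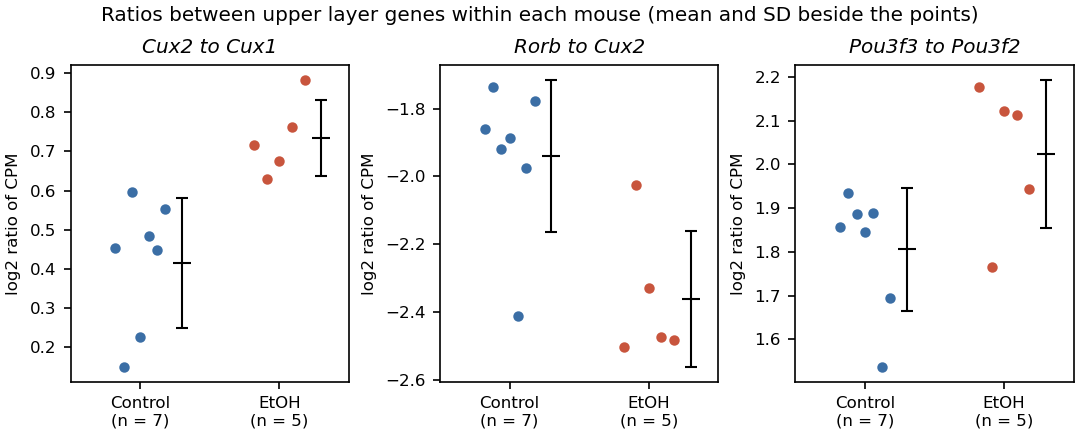
Log2 ratio of CPM between pairs of upper layer genes in each mouse (Control in blue, EtOH in red, with the mean and SD in black). Cux2 to Cux1 was apart between the groups, with the 5 EtOH mice at 0.63 to 0.88 and the 7 controls at 0.15 to 0.60, while the groups overlapped for the other pairs.

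The mice differed in the same direction for several members at once. Control mouse 7 was the highest control for all 6 genes, at a mean of 0.24 above its group on the log2 scale. EtOH mouse 3 was the lowest EtOH mouse for 5 of the 6 and EtOH mouse 5 the highest for 4. Without Control mouse 7, the log2 fold change was 0.35 for Cux2 (edgeR adjusted p = 0.00835), 0.29 for Rasgrf2 (0.014) and -0.28 for Pou3f2 (0.0732).

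**Figure D4:**
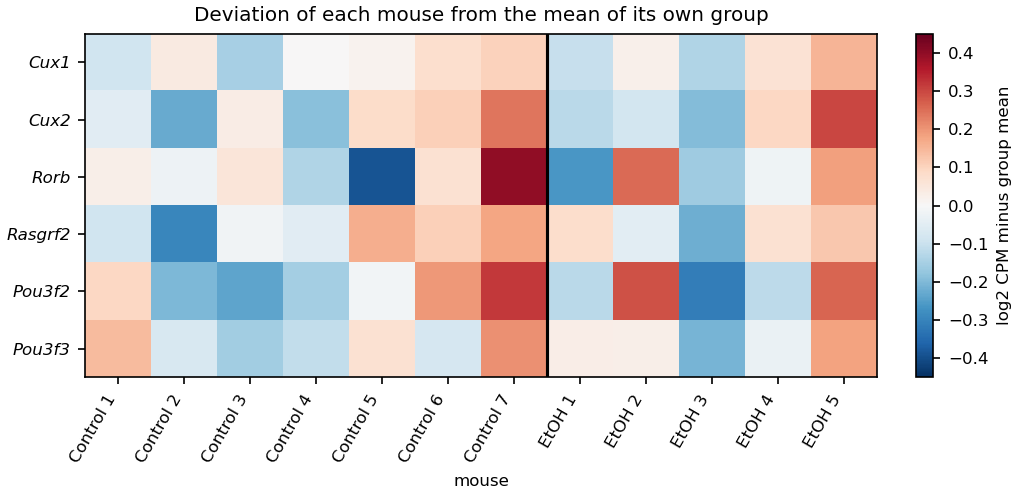
Deviation of each mouse from the mean of its own group (colour, log2 CPM) for the 6 upper layer genes; the black line separates Control from EtOH mice. Control mouse 7 and EtOH mouse 5 were above their group mean for all 6 genes and EtOH mouse 3 for 0.

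Likeness in pattern was measured as the root mean square difference of log2 CPM, centred on the controls, over the 12 mice. Among all genes tested, Rasgrf2 was the third closest to Cux2 (0.101), after Atp8b2 (0.0983) and Dtx4 (0.100). The genes closest to Rasgrf2 were D430041D05Rik (0.0585), Chd5 (0.0722) and Eif4g3 (0.0733), and those closest to Pou3f2 were Pik3c2b (0.120), Sec14l5 (0.125) and Atp2b2 (0.133). Among the 16059 genes tested, Pou3f3 was 141st in closeness to Pou3f2 (0.199) and the closest of the other members, the next being Rorb (0.225). Kdm3a (0.0788) and Tacc1 (0.0828) were among the genes closest to Pou3f3 itself. Uck2 (0.0554), Nup188 (0.0626) and Ank (0.0643) were closest to Cux1. A730008H23Rik and Hjurp (both 0.0884), which had the same count in every mouse, and Dleu2 (0.108) were closest to Rorb.

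Of 14 other upper layer genes, 4 were called higher and 2 lower in EtOH mice, with a median log2 fold change of 0.27. Across all genes, 4.2% were called higher and 4.09% lower. Scnn1a, a sodium channel subunit gene known as a marker of layer 4, rose from 3.46 ± 0.74 to 10.5 ± 1.57 CPM (log2 1.60, SE 0.14, edgeR adjusted p = 4.34e-07), and Whrn, which encodes the scaffold protein whirlin, from 41.4 ± 2.44 to 66.0 ± 5.51 CPM (log2 0.67, SE 0.06, adjusted p = 4.9e-07). Unc5d, a netrin receptor gene, rose by 0.76 and Mdga1, a regulator of synapse formation, by 0.70. Inhba, which encodes a subunit of activin, fell from 16.3 ± 3.71 to 6.05 ± 1.72 CPM (log2 -1.43, SE 0.18, adjusted p = 2.29e-05), and Lamp5, a membrane protein of layer 2 and 3 neurons and of some interneurons, had a log2 change of -0.51 (adjusted p = 0.00608). The change of Lamp5 lay at the minimum fold and was called in 7 of 12 fits with 1 mouse left out, the exceptions being Control mice 1, 3 and 7 and EtOH mice 1 and 3 (log2 -0.50 to -0.39). By adjusted p alone, the criterion by which Cux2 and Rasgrf2 were higher and Pou3f2 lower, 7 of the 14 were higher and 2 lower. Of all genes, 23.7% met it in either direction. It added Lhx2 (0.43), Plxnd1 (0.44) and Nectin3 (0.31) to the genes named above. The CPM of all 14 genes summed per mouse ranged from 736 to 797 in controls and from 772 to 906 in EtOH mice.

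Of 12 deep layer genes, 3 were called higher and 3 lower, with a median of -0.10, beside 4.2% and 4.09% of all genes. Etv1 (log2 0.71), Fezf2 (0.60) and Ntsr1 (0.99), genes of layer 5 and 6 neurons, rose, while Syt6 (-2.07), Foxp2 (-1.21) and Nxph4 (-0.75) fell. By adjusted p alone 3 were higher and 5 lower, beside 23.7% of all genes in either direction. The 5 included Bcl11b (-0.45, adjusted p = 0.00177, every EtOH mouse below every control) and Tbr1 (-0.40, adjusted p = 0.00222). Whether these changes arose in deep layer neurons of the cortex was not tested. The general glutamatergic marker Slc17a7, the vesicular glutamate transporter, measured 1955 ± 144 CPM in controls and 1906 ± 223 in EtOH mice (log2 -0.04, adjusted p = 0.742). Neurod2 had 106 ± 13.2 and 137 ± 4.07 CPM (log2 0.36, adjusted p = 0.00189) and Neurod6 93.5 ± 9.92 and 112 ± 13.8 CPM (log2 0.26, adjusted p = 0.0286), changes of the size of that of Cux2. With 1 mouse left out, the edgeR adjusted p stayed under 0.05 in 12 of 12 fits for Neurod2 and in 8 of 12 for Neurod6 (highest 0.0809). When all genes were scaled to these 3 glutamatergic genes, the log2 fold change of Cux2 was 0.11 (limma adjusted p = 0.385), that of Rasgrf2 0.07 (0.588) and that of Pou3f2 -0.54 (0.00141), which passed the call. On that scale Rorb (-0.31, adjusted p = 0.0313) and Pou3f3 (-0.32, adjusted p = 0.0116) also had an adjusted p under 0.05, while Cux1 did not (-0.21, adjusted p = 0.082). The 3 scaling genes did not move together there, with Slc17a7 at -0.24 (limma adjusted p = 0.0267), Neurod2 at 0.17 (0.0729) and Neurod6 at 0.06 (0.564). The median of all genes moved to -0.20 there, with 356 genes called higher and 1530 lower, in place of 660 and 661 by the same limma test without the scaling.

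**Figure D5:**
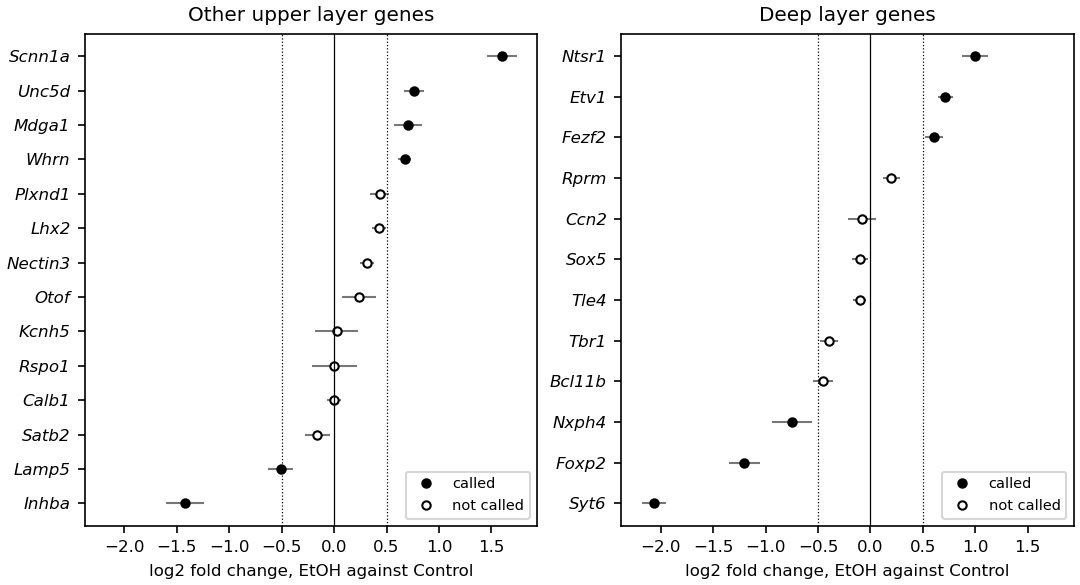
Log2 fold change (EtOH against Control, bars 1 SE) of 14 other upper layer genes and 12 deep layer genes, filled where called; dotted lines mark 0.5 in size. In both lists called genes lie on either side of 0, from -1.43 (Inhba) to 1.60 (Scnn1a) and from -2.07 (Syt6) to 0.99 (Ntsr1).

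Markers of neighbouring brain regions differed between the groups as well. All 12 striatum markers fell, among them Drd2, Rgs9, Ppp1r1b, Gpr6, Pde10a and Adora2a, with a median log2 change of -2.73 and a summed level of 1310 to 2951 CPM in controls and 380 to 486 in EtOH mice, and 9 of 10 hippocampus markers rose, among them Fibcd1, C1ql2, Dsp, Spink8 and Lct, with a median of 2.72 and a summed level of 108 to 149 CPM against 240 to 333. These calls, and those of the other lists, stand beside 4.2% of all genes called higher and 4.09% lower. Of the other lists, 1 of 5 tested thalamus markers rose (Slc17a6, by 1.08) and 1 of 7 interneuron markers fell (Gad2, by 0.63). In the same way 1 of 5 astrocyte markers rose (Gfap, by 0.77) and 2 of 5 oligodendrocyte markers fell (Mbp, by 0.50, and Mobp, by 0.52). Both lay near the minimum fold: Mbp was called in 6 of 12 fits with 1 mouse left out (not without Control mouse 1, 3 or 7 or EtOH mouse 1, 3 or 4) and Mobp in 9 of 12 (not without Control mouse 7 or EtOH mouse 3 or 4), with log2 changes of -0.50 to -0.43 where the call was lost. No microglial, endothelial or blood marker was called (0 of 5, 0 of 5 and 0 of 3 by edgeR), beside 8.29% of all genes. By adjusted p alone 3 of 5 microglial markers and 1 of 5 endothelial markers were lower, beside 23.7% of all genes in either direction. By the same criterion 1 interneuron marker was higher (Adarb2, 0.43) and 2 were lower (Gad2 and Gad1, the latter by 0.31), 3 astrocyte and 2 thalamus markers were higher, and 5 oligodendrocyte markers were lower. The summed levels of the interneuron markers did not overlap between the groups (854 to 1120 CPM in controls and 740 to 791 in EtOH mice), nor did those of the thalamus (46.5 to 53.1 and 58.9 to 84.4), astrocyte (791 to 889 and 960 to 1063), microglial (236 to 259 and 202 to 223) and endothelial markers (228 to 257 and 203 to 225), while those of oligodendrocyte and blood markers overlapped. Within the interneuron sum, Gad1 had means of 397 and 321 CPM and Gad2 of 241 and 156. Pvalb, Sst and Vip (log2 -0.31, -0.23 and -0.21) had edgeR adjusted p of 0.106, 0.0943 and 0.12, and Lhx6 was at 0.03. As single genes, 2 of 7 interneuron, 1 of 5 thalamus, 1 of 5 astrocyte, 2 of 5 microglial and 1 of 5 endothelial markers were fully apart. Over all genes, 4.84% were so with EtOH mice above and 4.96% below. No listed gene was at 0 in all mice. Control mouse 7, the highest control for the 6 members, also had the lowest striatum total of the controls (1310 CPM, the next being 1923). The part of these regions and cell types in the changes of Cux2, Rasgrf2 and Pou3f2, or of the other upper and deep layer genes, was not tested.

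Cdkn1a, which encodes the cell cycle inhibitor p21 that the study stained together with CUX1, measured 25.7 ± 5.59 CPM in controls (16.5 to 32.0, median 27.2) and 13.6, 8.43, 9.75, 12.5 and 19.7 CPM in EtOH mice 1 to 5. It fell by 1.00 on the log2 scale (SE 0.19, edgeR adjusted p = 0.000974), with 4 EtOH mice below every control, while Cux1 had the change of -0.01 given above. RNA of the whole block does not show in which cells either transcript lay.

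Total counts ranged from 31768076 to 42183029 per mouse, Control mouse 5 and EtOH mouse 1 being the deepest, with medians of 32166774 in controls and 32947641 in EtOH mice, and the lowest count of any member in any mouse was 717 (Pou3f2). A detection floor of 3 counts equals at most 0.0944 CPM, far below the level of each member. No mouse pair of a group agreed within sampling noise, so all 12 mice were counted.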

How the data were processed

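Total RNA of 12 cortices was sequenced by BGI. The authors checked reads with FastQC 0.11.9, aligned them to GRCm39 with STAR and a Gencode annotation, and ran featureCounts to obtain gene counts; strand and multi-mapping settings are not given in the sources used here. The authors deposited expected counts per gene symbol, without normalization, in 1 table of 12 mice. For 61 symbols they were not whole, and all were rounded. Columns left unmatched: 0.

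Genes were kept with filterByExpr (16059) and compared with edgeR's quasi-likelihood test on TMM-scaled counts, Benjamini-Hochberg adjusted over all of them (R 4.3.3, edgeR 4.0.16, limma 3.58.1). A call needed a log2 fold change over 0.5 in either direction besides an adjusted p under 0.05. Per-mouse CPM used TMM factors, and log2 ratios used a prior count of 0.5. Gene positions, exon lengths and the 250 bases before each gene's 5′ end came from the Gencode annotation of GRCm39. Named were the 6 members, called genes of the lists (at most 6 a list, smallest p first), 3 glutamatergic genes, Cdkn1a, overlapping genes and the 3 nearest genes of each member; some genes this rule selects are not reported here by name, and Lhx2, Plxnd1, Nectin3, Bcl11b, Tbr1, Adarb2 and Gad1 were added once their values were known. The fits were tested on simulated data. Alternatives were DESeq2 1.42.0, limma voom, other size factors and filters, scaling to glutamatergic genes, a replicate block and each mouse left out. The members, lists and ratios were chosen with earlier results of these data known. Samples of a group are separate mice by their labels.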

Additional observations from a re-analysis of the deposited data

Results flagged for a closer look

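In all, 3 values stood apart from the rest of their group by Dixon's criterion, among 28 groups of values checked, where chance gives about 1.4. The log2 ratio of Rorb to Cux2 in Control mouse 5 was -2.412, the lowest of the controls, the next being -1.975. Without this mouse the difference between the groups was -0.50 (exact permutation p = 0.00216) in place of -0.42. Total counts were highest in Control mouse 5, at 40690223 (next 32356913), and in EtOH mouse 1, at 42183029 (next 33313165). With both of these mice left out, the log2 fold change was 0.0236 for Cux1, in place of -0.0099, and -0.30 for Pou3f2 (edgeR adjusted p = 0.102).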

How the results depend on the processing

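None of the 6 members was called under any alternative other than scaling to glutamatergic genes, which called Pou3f2 (-0.54), and the removal of the minimum fold, which called Cux2 (0.31), Rasgrf2 (0.26) and Pou3f2 (-0.34). Without a minimum fold 1947 genes were called higher and 1863 lower, in place of 674 and 657, and with glutamatergic scaling 356 and 1530 (660 and 661 by the same limma test without scaling, added after the values had been seen); with 1 mouse left out the counts ranged from 576 to 783 and from 586 to 727. The sign of Cux1, whose interval spans 0, changed with the replicate block (0.0245), in the same 10 mice without it (0.0262, added after the values had been seen), without the 2 deepest libraries (0.0236, also added) and in 4 of 12 fits with 1 mouse left out, whose values ranged from -0.0515 to 0.0219. With 1 mouse left out Cux2 ranged from 0.23 to 0.36, Rorb from -0.19 to -0.04, Rasgrf2 from 0.22 to 0.31, Pou3f2 from -0.42 to -0.27 and Pou3f3 from -0.18 to -0.08, and the ratio differences from 0.27 to 0.35 (Cux2 to Cux1), from -0.51 to -0.39 (Rorb to Cux2) and from 0.1735 to 0.2832 (Pou3f3 to Pou3f2). The last had p above 0.05 in 5 of these and without the 2 deepest libraries (0.1941, exact permutation p = 0.0952). Same-numbered mice did not deviate together (correlations of -0.104 to 0.026, none of 5 mice closest to its own number). No pairing by number was thus seen, though 5 pairs could not exclude a small shared effect. With the replicate block the ratio differences were 0.3517, -0.3977 and 0.1421, with exact permutation p of 0.0625, 0.0625 and 0.1875, where 0.0625 is the smallest that 5 pairs allow. Pou3f2 had -0.24 (edgeR adjusted p = 0.0959) with the block, beside -0.23 (0.14) in the same 10 mice without it. The causes were not tested. With 5 and 7 mice, the 95% intervals left room for log2 changes down to -0.36 in Rorb and -0.28 in Pou3f3.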

Other observations

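Within the 7 controls, 12 relations between a member and the summed level of striatum or hippocampus markers were computed. The most negative were those of Cux2 (Pearson r = -0.80, exact permutation p = 0.025, Spearman rho = -0.64, p = 0.139) and Rasgrf2 (r = -0.75, exact permutation p = 0.0486, rho = -0.75, p = 0.0663) with the striatum markers. After adjustment over the 12 relations both had an exact permutation p of 0.292, and without the 2 mice farthest from the median, Control mice 2 and 7, r was -0.32 and -0.34 over the 5 mice left, which covered a narrower range of striatum levels, so the relations could not be assessed apart from those mice.

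A730008H23Rik and Hjurp, the genes nearest to Rorb in pattern, had identical counts in all 12 mice and stand for a single measurement here.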
